A study of Homo sapiens with 6 samples.

Results

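The regions described here are the accessible regions of the human major histocompatibility complex (MHC), measured by FAST-ATAC in WA09, a line of human embryonic stem cells. FAST-ATAC uses the Tn5 transposase, which cuts open chromatin and inserts sequencing adapters there, so that the number of reads in a region is a measure of its accessibility. A region was taken when its midpoint lay on chromosome 6 between 29.6 and 33.4 Mb of hg19, and 5 regions between 31.11 and 31.16 Mb, around POU5F1, were left out. This gave 276 regions of the 118556 in the table. They fell into a class I interval (29.6 to 31.5 Mb) with 128 regions, a class III interval (31.5 to 32.35 Mb) with 70 and a class II interval (32.35 to 33.4 Mb) with 78. Both groups were sorted from cultures of the same line by surface antigens. The GCTM-2highCD9highEPCAMhigh cells (the high population) and the GCTM-2midCD9mid cells (the mid population, called low in the sample titles) had 3 replicates each. WA09 is 1 line, so the replicates do not sample different donors.

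The MHC is a gene-dense stretch of chromosome 6 best known for the cell surface molecules that present peptides to T cells. Class I molecules such as HLA-B and HLA-C sit on most nucleated cells and show peptides from inside the cell, whereas class II molecules such as HLA-DR, HLA-DQ and HLA-DP are made mainly by professional antigen-presenting cells. The class III interval between them holds no antigen-presenting chains but complement genes, the TNF gene and its neighbours, inducible heat shock genes and many housekeeping genes. Embryonic stem cells are known for low class I levels and for lacking class II. The class I genes answer to interferon and NF-kB through short promoter elements, and the class II genes to the transactivator CIITA, which is recruited through a module that ends in a CCAAT box bound by NF-Y.

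Regions carry no gene names here, because the table is in hg19 and the annotation used is of another build. In the RefSeq gene order of GRCh38.p14 the class I interval runs from ZFP57 to MICB with 142 genes, 50 of them protein-coding and 61 pseudogenes. The class III interval runs from DDX39B to NOTCH4 with 86 genes, 58 of them protein-coding and 7 pseudogenes. The class II interval runs from HLA-DRA to DAXX with 60 genes, 32 of them protein-coding and 14 pseudogenes. To show the kind of regulatory sequence the complex holds, 1 promoter is printed for each of 4 gene groups. Each is the 250 bases before the start in RefSeq (GRCh38.p14), 5′ to 3′ on the gene's strand, with matches to the searched motifs on either strand in capitals. None was matched to a region of the table. HLA-B (chr6:31357180-31357429, minus strand) encodes a class I heavy chain, HLA-DQB1 (chr6:32666658-32666907, minus strand) a class II beta chain, TAP1 (chr6:32853705-32853954, minus strand) a subunit of the peptide transporter, and HSPA1A (chr6:31815293-31815542, plus strand) an inducible heat shock protein.
HLA-B: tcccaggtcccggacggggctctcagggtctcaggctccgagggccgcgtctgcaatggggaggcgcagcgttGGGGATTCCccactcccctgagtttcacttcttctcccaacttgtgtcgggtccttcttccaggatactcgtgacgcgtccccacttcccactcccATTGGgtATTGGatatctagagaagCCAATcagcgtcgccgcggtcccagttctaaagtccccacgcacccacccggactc
HLA-DQB1: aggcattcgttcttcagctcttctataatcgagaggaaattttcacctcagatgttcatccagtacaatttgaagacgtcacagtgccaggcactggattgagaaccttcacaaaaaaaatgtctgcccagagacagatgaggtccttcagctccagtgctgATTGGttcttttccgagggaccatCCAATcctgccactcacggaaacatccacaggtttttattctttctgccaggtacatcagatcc
TAP1: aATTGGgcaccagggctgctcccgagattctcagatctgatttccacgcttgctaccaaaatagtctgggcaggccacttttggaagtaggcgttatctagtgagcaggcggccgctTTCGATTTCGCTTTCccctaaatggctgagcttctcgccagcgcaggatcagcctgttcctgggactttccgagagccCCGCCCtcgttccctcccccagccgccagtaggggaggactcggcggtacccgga
HSPA1A: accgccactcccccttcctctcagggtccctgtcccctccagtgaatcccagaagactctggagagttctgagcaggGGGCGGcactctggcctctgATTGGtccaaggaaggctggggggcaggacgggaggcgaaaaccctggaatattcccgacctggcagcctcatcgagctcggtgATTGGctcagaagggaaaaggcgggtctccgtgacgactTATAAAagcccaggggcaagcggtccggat

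The capitals mark the NF-kB motif GGGNNTTCC at base 74 of HLA-B, the interferon response element GAAANNGAA at bases 118 and 124 of TAP1 (overlapping matches on the opposite strand), the TATA box at base 221 of HSPA1A, the CCAAT box and the SP1 motif. A CCAAT box was present in all 3 windows of heat shock genes, in 11 of 13 promoter windows of class II chains and in 6 of 8 windows of class I heavy chains, against 32.0% of all 35116 RefSeq promoter windows. In the other lists it was in 2 of 7 antigen processing, 1 of 6 complement, 1 of 12 TNF block, 2 of 11 chromatin regulator and 2 of 9 RNA and translation windows. An interferon response element was present in 4 of 13 class II windows and in 3 of 7 windows of antigen processing genes, against 6.88% of all, and in 1 window each of the class I, complement, chromatin regulator, and RNA and translation lists. The CRE-like motif TGACGTCA was in none of these windows and in 1.65% of all. The SP1 motif, GGGCGG, was in 42.6% of all windows. It was in 9 of 11 windows of chromatin regulators, 5 of 7 of antigen processing genes and all 3 of heat shock genes. It was also in 4 of 8 class I, 4 of 9 RNA and translation and 2 of 6 complement windows. The TNF block had it in 3 of 12 windows (25%) and the class II chains in 1 of 13 (7.69%). All 3 heat shock windows held the TATA box, searched as TATAAA (10.7% of all). The windows of HSPA1L and HSPA1A, 2 of the heat shock genes, overlap on opposite strands. Their CCAAT, SP1 and TATA matches are the same bases counted for both genes, so the 3 windows are not 3 separate sequences. The CCAAT box of the 2 antigen processing windows, of TAP1 and PSMB9, is likewise 1 shared match. NF-kB matches were in 2 of 7 antigen processing, 2 of 9 RNA and translation, 1 of 6 complement, 1 of 8 class I, 1 of 11 chromatin regulator, 1 of 12 TNF block and 1 of 13 class II windows, against 5.78% of all. A match is a run of letters, and binding was not measured. Each motif was searched as 1 fixed pattern, so a window without a match may still hold a variant of the element.

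Reads in the regions of the whole table numbered from 15486251 to 26225539 in the high samples and from 23091028 to 29025274 in the mid samples. In edgeR's quasi-likelihood test with the replicate number as a block, regions with a Benjamini-Hochberg adjusted p under 0.01 were called. Over all regions, 2.32% were called higher in the high population and 3.77% higher in the mid population. That split depended on scaling: it was 2747 high and 4472 mid with TMM, and 4971 high and 3179 mid with total counts only. Reads of the MHC regions numbered from 59863 to 142759 per sample, and a single region held between 11 and 5065 reads, with a median of 188. All 276 passed a filter of more than 1 CPM (reads per 1000000 reads in the regions of the table, TMM-scaled) in 3 samples.

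Among the MHC regions, 35 were more accessible in the mid population (12.7%, against 3.77% of all regions) and 0 in the high population (against 2.32%). By interval, 12 of 128 class I regions (9.38%), 12 of 70 class III regions (17.1%) and 11 of 78 class II regions (14.1%) were called. The fitted differences ran from 1.36-fold to 1.81-fold. All 35 were lower in the high sample of each same-numbered pair, and in 34 the groups did not overlap, counts that largely follow from the call itself. Over all 276 MHC regions, called or not, 122 (44.2%) were lower in high in every pair, against 22.4% of all regions. At an adjusted p under 0.05 in the same test, 61 were higher in mid (7.08% of all regions) and 0 in high (6.03%), and at an unadjusted p under 0.05 there were 93 in mid (13.6% of all) and 3 in high (14.2%). DESeq2 called 31 in mid and 0 in high among the 210 MHC regions it gave an adjusted p, which is 14.8% against 6.42% of all regions it gave one.

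The lower level in the high population was not limited to called regions. The 241 MHC regions not called had a median log2 fold change of -0.16. In 59 of these 241, every high sample lay below every mid sample. No such share was taken among the uncalled regions of the whole table. Of the 276, called or not, 223 (80.8%) had a lower fitted level in the high population, against 46.5% of all regions. Every high sample lay below every mid sample in 93 MHC regions, a separation seen in 13% of all regions, and every high sample above every mid sample in 6, seen in 12.9% of all. The median log2 fold change (high minus mid) was -0.21 over the MHC, against 0.03 over all regions and 0.12 over the 7087 regions of chromosome 6 outside the interval. It was -0.15 in class I, -0.30 in class III and -0.26 in class II. Mid replicate 1 held the highest of the 6 values in 138 of 276 regions (50.0%), against 20.5% of all regions. Without replicate 1 of both groups, the median was -0.13, and 173 regions were lower in high.

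**Figure D1:**
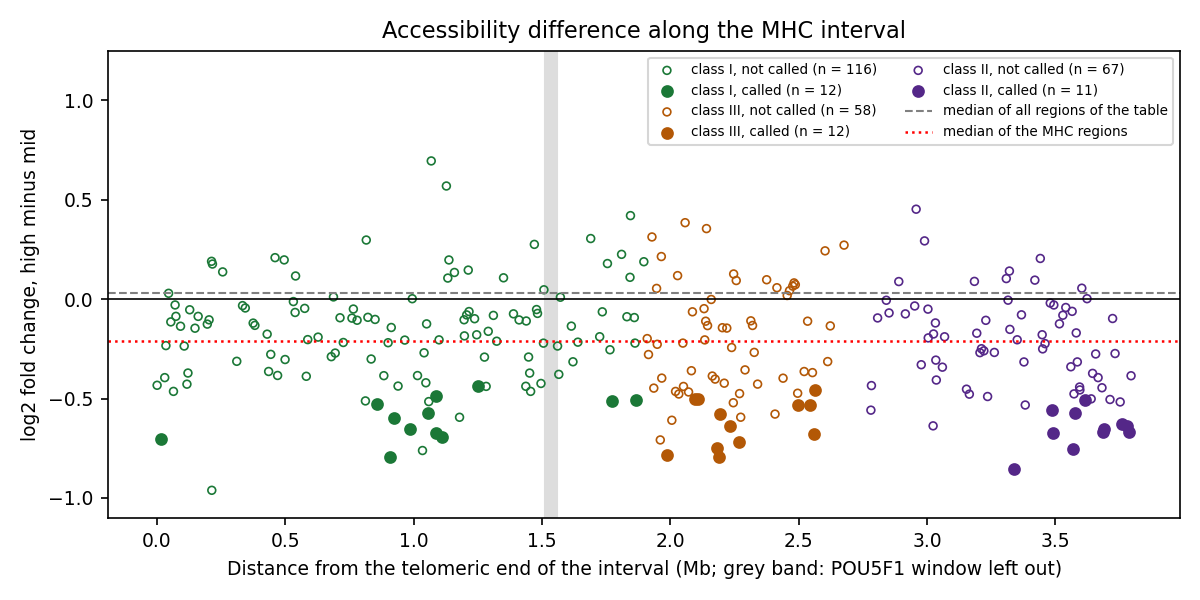
The log2 fold change (vertical axis, high minus mid) of each of the 276 MHC regions by its distance in Mb from the telomeric end of the interval (horizontal axis). Filled circles are called regions and open circles are not, the dotted line is the MHC median of -0.21 and the dashed line the median of all regions, 0.03; all 35 filled circles lie below 0, with gaps between their groups.

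Summed over each interval, every high sample held less than every mid sample. The class I regions together held 1440, 1529 and 1722 CPM in high replicates 1, 2 and 3, and 2128, 1825 and 1840 CPM in mid replicates 1, 2 and 3. The class III regions held 1006, 1116 and 1146 CPM in the high samples and 1676, 1341 and 1369 CPM in the mid samples. The class II regions held 976, 1038 and 1107 CPM in the high samples and 1557, 1332 and 1323 CPM in the mid samples. In each interval mid replicate 1 was the highest sample and high replicate 1 the lowest.

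The means were 1564 ± 144 (SD, n = 3) against 1931 ± 171 CPM for class I, or 1.24-fold, 1089 ± 73.8 against 1462 ± 186 CPM for class III, or 1.34-fold, and 1040.1 ± 65.6 against 1404 ± 133 CPM for class II, or 1.35-fold. On the log2 scale the differences were -0.30, -0.42 and -0.43. The exact two-sided permutation test gave p = 0.1 for each, the smallest p that 3 against 3 allows, so the sums cannot pass 0.05. Same-numbered pairs differed by -0.56, -0.25 and -0.10 in class I, by -0.74, -0.27 and -0.26 in class III, and by -0.67, -0.36 and -0.26 in class II. Pair 1 thus gave the largest difference in each interval, and without it the differences were -0.18, -0.26 and -0.31. As a share of the reads in all regions of the table, the MHC took 0.381% ± 0.031 in high and 0.464% ± 0.024 in mid (SD, n = 3).

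**Figure D2:**
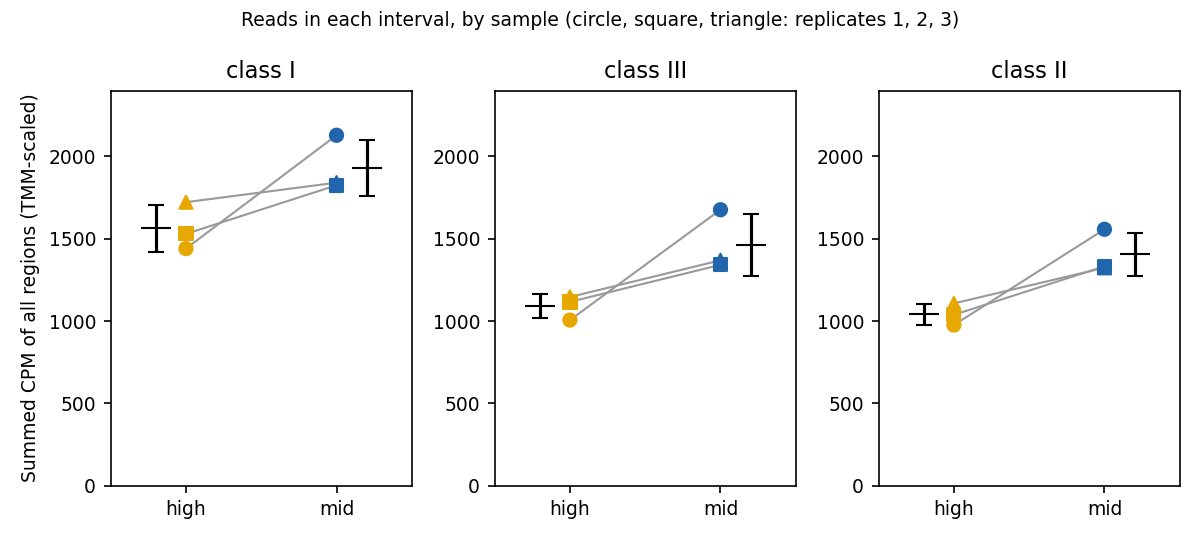
Summed TMM-scaled CPM of all regions of each interval (vertical axis, from 0) in the 3 high and 3 mid samples, with grey lines joining same-numbered replicates and black bars for the mean and SD. In class I, class III and class II the 3 high samples sit below the 3 mid samples, and the line of replicate 1 is the steepest.

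Ratios within a library need no scaling. The class III to class II ratio differed by 0.01 on the log2 scale between the populations (exact permutation p = 0.8, n = 3 per group). Class III over class I differed by -0.11 and class II over class I by -0.13, and in both the groups did not overlap (exact permutation p = 0.1 for each, n = 3). The MHC regions taken as a percentage of the reads in the rest of chromosome 6 came to 5.77, 6.57 and 7.15 in the high samples and 8.95, 8.38 and 8.20 in the mid samples, a log2 difference of -0.39 (exact permutation p = 0.1, n = 3). These ratios, too, could not pass 0.05.

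The neighbouring chromatin was measured in the same way over 3.8 Mb on each side. The telomeric flank, 25.8 to 29.6 Mb, held 263 regions, of which 64 (24.3%) were called higher in mid and 0 in high, and its median log2 fold change was -0.36. The centromeric flank, 33.4 to 37.2 Mb, held 257 regions, of which 14 (5.45%) were called higher in mid and 0 in high, with a median of -0.20. In the rest of chromosome 6 the calls went more often the other way, with 209 regions (2.95%) higher in high and 149 (2.10%) higher in mid, both flanks included. MHC reads as a percentage of those in the telomeric flank came to 107.6, 107.1 and 112.1 in the high samples and 103.2, 104.1 and 105.5 in the mid samples, a log2 difference of 0.06. As a percentage of those in the centromeric flank they came to 138.5, 137.8 and 136.9 in high and 152.0, 145.5 and 144.2 in mid, a log2 difference of -0.10. In both ratios the groups did not overlap and the 3 pairs had the same sign, with opposite signs for the 2 flanks. The exact permutation test gave p = 0.1 for each (n = 3), its smallest value, so this test cannot tell whether the MHC differed from its flanks. Calls went in the same direction in both flanks, and the share of called regions in the MHC lay between those of the flanks. In the telomeric flank 85.2% of regions were lower in high, 62.7% were lower in every pair, and mid replicate 1 was highest in 59.7%. In the centromeric flank these shares were 80.2%, 40.5% and 41.2%. The MHC shares of 80.8%, 44.2% and 50.0% lay between them. Every high sample lay below every mid sample in 133 of 263 telomeric and 66 of 257 centromeric regions.

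The MHC regions were wider and held more reads than most of the table. Their median width was 1368 bp, with a range of 381 to 8201 bp, against 879 bp for all regions, and 80 of 276 (29.0%) were over 2000 bp, against 11.8%. The median was 1370 bp in class I, 1664 bp in class III and 1054.5 bp in class II. There were 73.6 regions per Mb in the MHC (69.2 in class I, 82.4 in class III and 74.3 in class II), against 69.2 and 67.6 in the flanks and 43.1 over chromosome 6. Regions covered 12.1% of the MHC sequence, with 11.1% in class I, 14.8% in class III and 11.9% in class II. The median level per kb was 6.18 CPM, against 4.43 CPM for all regions. The telomeric flank had a median width of 1454 bp, 30.8% of regions over 2000 bp and 6.30 CPM per kb, and the centromeric flank lay between the MHC and the table, with 1170.0 bp, 18.3% and 5.44 CPM per kb. Within a population the replicates of an MHC region spread by a median coefficient of variation of 14.6% in high and 12.7% in mid, against 17.1% and 15.4% over all regions.

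Width moved with the result. Among MHC regions up to 1000 bp wide, 1 of 103 was called higher in mid (0.569% of all regions of that width), and of those from 1001 to 2000 bp, 4 of 93 were (3.4% of all of that width). Of the regions over 2000 bp, 30 of 80 were called, or 37.5%, against 20.7% of all regions over 2000 bp. The 35 called regions had a median width of 2942 bp and the uncalled ones of 1193 bp. The median log2 fold changes in the 3 width classes were -0.11, -0.17 and -0.41 in the MHC and 0.10, 0.0048 and -0.22 in the table. At each width the MHC median was thus lower than that of all regions, by a description and not a test. All 20 class II regions over 2000 bp were lower in the high population, as were 22 of 26 in class III and 29 of 34 in class I. Over the whole table, 72.2% of regions over 2000 bp were lower in high, and on the rest of chromosome 6 60.4% were. With offsets fitted to region width, 11 MHC regions were called higher in mid (3.99%, against 2.39% of all), and the MHC median was -0.18. The part of width in the calls was not otherwise tested.

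**Figure D3:**
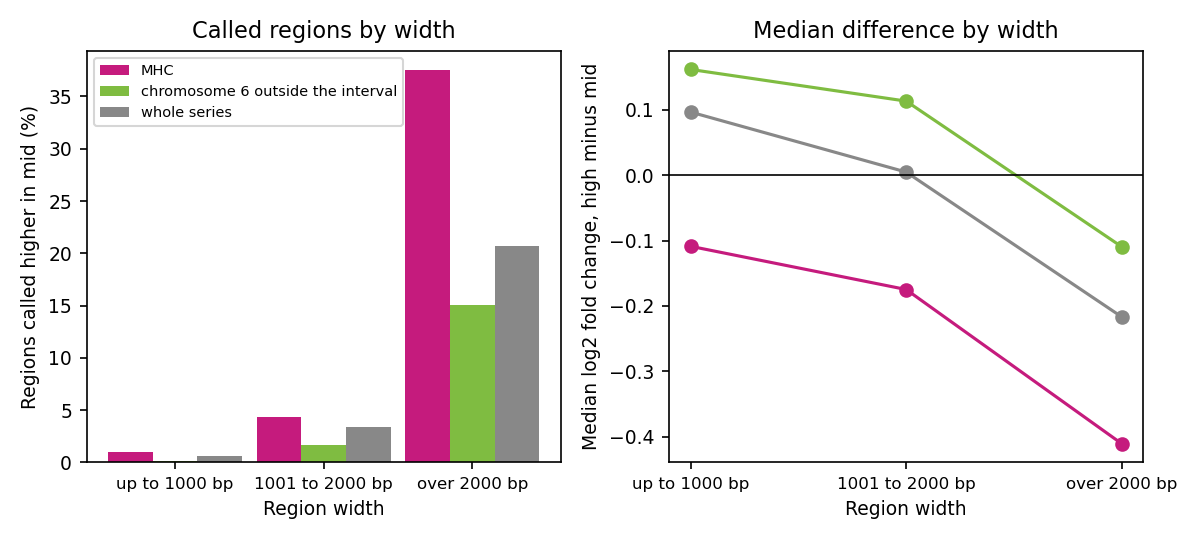
Left, percentage of regions called higher in mid (vertical axis, from 0) for 3 classes of region width; right, median log2 fold change (high minus mid) in the same classes, for the MHC, the rest of chromosome 6 and the whole table. The MHC reaches 37.5% and a median of -0.41 in regions over 2000 bp, against 20.7% and -0.22 in the whole table.

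Several other settings changed the number called. Without the replicate block, 15 MHC regions were called higher in mid (5.43%, against 1.11% of all), with offsets fitted to average log2 CPM 16 (5.80%, against 2.65%), and with total counts as the scaling 24 (8.70%, against 2.68%). Without replicate 2 of both groups, 3 were called (1.09%, against 0.369% of all), namely chr6:31586733-31589406 and chr6:31785092-31791069 in class III and chr6:32934921-32943121 in class II. Those 3 were chosen by that count after their values were seen.

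In class I, the strongest evidence came from chr6:30708641-30713133, a region of 4493 bp. It held 49.6, 51.7 and 49.6 CPM in the high samples and 99.3, 76.3 and 70.8 CPM in the mid samples. Every mid sample was above every high sample, and mid replicate 1 stood highest. The log2 fold change was -0.69 ± 0.12 (SE; edgeR adjusted p = 5.23e-05), or 1.63-fold. Next, 17.7 kb towards the telomere, lay chr6:30686449-30690922, with 37.4, 37.4 and 37.2 CPM in high and 64.3, 57.3 and 57.4 CPM in mid, a fold change of 1.60. Its 3 high samples were almost equal, and its edgeR adjusted p was 8.82e-05. Only 0.366 kb further, chr6:30684064-30686082, one of the 3 class I regions with the most reads per kb, held 30.4, 36.1 and 34.2 CPM in high and 51.6, 45.5 and 44.2 CPM in mid (log2 fold change -0.49, edgeR adjusted p = 0.00622). These 3 called regions lay within 29.1 kb.

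Of the other class I regions, chr6:30509125-30510024 had the largest fold change among those called. It was only 900 bp wide and held 5.25, 3.57 and 3.59 CPM in the high samples and 8.75, 6.49 and 6.21 CPM in the mid samples, a log2 fold change of -0.79 ± 0.19 (SE; edgeR adjusted p = 0.00301). It was the sole called MHC region up to 1000 bp wide, and in DESeq2 its adjusted p was 0.0103. At the telomeric end, chr6:29615664-29618605 held 22.1, 22.1 and 25.0 CPM in high and 44.8, 33.3 and 35.5 CPM in mid, and fell by 0.70 on the log2 scale (edgeR adjusted p = 0.000172). A second region with many reads per kb, chr6:30522649-30525748, held 48.3, 44.0 and 41.7 CPM in high and 77.6, 64.2 and 62.1 CPM in mid (log2 fold change -0.60, edgeR adjusted p = 0.000331). In all 3 the high samples lay below the mid samples.

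The widest class I region, chr6:30847507-30855056, spanned 7550 bp. It held 74.6, 76.1 and 90.6 CPM in the high samples and 128, 98.9 and 102 CPM in the mid samples. The groups did not overlap, but the log2 fold change of -0.44 was the smallest of the 35 calls (edgeR adjusted p = 0.00776), and with offsets fitted to width it turned to 0.038. The class I region with the most reads per kb, chr6:30034041-30035698, at 23.8 CPM per kb, was not called. It held 32.6, 34.9 and 35.9 CPM in high and 43.4, 44.4 and 45.2 CPM in mid, with no overlap and a log2 fold change of -0.36 (edgeR adjusted p = 0.0414).

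The nearest regions on either side of the POU5F1 window showed no such separation. POU5F1 encodes OCT4, a transcription factor needed for pluripotency, and its neighbours in the RefSeq order are TCF19 and CCHCR1 on one side and PSORS1C3, HCG27 and HLA-C on the other. Before the window, chr6:31106752-31108132 held 4.22, 9.23 and 7.56 CPM in high and 5.63, 7.62 and 6.52 CPM in mid (log2 fold change 0.05, edgeR adjusted p = 0.897). After it, chr6:31160156-31160977 held 3.02, 4.74 and 3.78 CPM in high and 5.03, 3.68 and 4.75 CPM in mid (log2 fold change -0.24, edgeR adjusted p = 0.492). The groups overlapped in both.

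In class III, 3 of the named regions lay within 14.6 kb. The first, chr6:31781639-31783948, held 39.7, 38.6 and 45.2 CPM in high and 84.4, 60.8 and 64.2 CPM in mid, and had the most reads per kb in class III, at 24.0 CPM. It fell by 0.75 on the log2 scale (edgeR adjusted p = 2.32e-05). The second, chr6:31785092-31791069, the widest of class III at 5978 bp, held 32.4, 23.7 and 20.0 CPM in high and 72.0, 35.8 and 30.6 CPM in mid. Here high replicate 1 was above mid replicate 3, so the groups overlapped, and this was the 1 called region where they did. Within each pair the high sample was lower, with log2 differences of -1.15, -0.59 and -0.61, and the fitted change was -0.79 ± 0.13 (SE; edgeR adjusted p = 2.47e-05). Without the replicate block its adjusted p was 0.0346.

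The third, chr6:31792089-31796249, held 65.7, 65.5 and 75.0 CPM in high and 131, 85.2 and 96.1 CPM in mid (log2 fold change -0.58, edgeR adjusted p = 0.000611). Another, chr6:31864410-31866967, lay 68.2 kb further on and held 16.3, 17.8 and 17.8 CPM in high and 34.6, 27.0 and 24.6 CPM in mid (log2 fold change -0.72, edgeR adjusted p = 0.000308). In both the high samples were tightly grouped, and mid replicate 1 was above the other mid samples.

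The class III region with the smallest p, chr6:31586733-31589406, stood apart from this cluster. It held 41.9, 49.3 and 37.7 CPM in high and 80.1, 73.2 and 67.5 CPM in mid, with means of 43.0 ± 5.87 and 73.6 ± 6.29 CPM (SD, n = 3). The difference of 1.71-fold (log2 -0.78 ± 0.12 SE, edgeR adjusted p = 6.45e-06) was seen in all 3 pairs, and the region was called in 19 of 19 other fits. Nearer the class II side, chr6:32162114-32165954 held 69.0, 76.4 and 80.0 CPM in high and 116, 92.3 and 102 CPM in mid (log2 fold change -0.46, edgeR adjusted p = 0.00499). It was among the 3 class III regions with the most reads per kb, at 23.3 CPM.

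The largest fitted log2 fold change of the called MHC regions was in class II, at chr6:32934921-32943121, which was also the widest MHC region at 8201 bp. It held 97.0, 97.8 and 90.3 CPM in the high samples and 190.2, 170.0 and 156 CPM in the mid samples. The means were 95.0 ± 4.15 and 172 ± 17.2 CPM (SD, n = 3), so the gap between the groups was several times the spread within them. The difference was 1.81-fold (log2 -0.85 ± 0.11 SE, edgeR adjusted p = 1.83e-07), with pair differences of -0.97, -0.80 and -0.79. By the ratio of group means alone, the class III region starting at 31785092 was as large, at 1.82-fold. The class II region was called in 19 of 19 other fits, as was the class III region at 31586733 and no other of the 35.

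A short distance away, chr6:32920476-32921541, among the class II regions with the most reads per kb, did not follow it. It held 15.4, 17.4 and 24.0 CPM in high and 16.7, 16.0 and 18.2 CPM in mid (log2 fold change 0.14, edgeR adjusted p = 0.559), and the groups overlapped. Its end and the start of the widest region were 13.4 kb apart.

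Towards the centromere, chr6:33167015-33169622 held 26.2, 23.8 and 22.3 CPM in high and 46.0, 39.4 and 36.9 CPM in mid (log2 fold change -0.76, edgeR adjusted p = 3.36e-05). Its 3 pairs were close to each other, at -0.81, -0.73 and -0.73. The region chr6:33091149-33093155 held fewer reads, with 7.59, 8.80 and 9.07 CPM in high and 15.7, 12.5 and 12.6 CPM in mid (log2 fold change -0.67, edgeR adjusted p = 0.00401). Groups did not overlap in either.

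Near the border of the interval several regions with many reads were called. The highest level per kb of all MHC regions, 25.0 CPM, was at chr6:33358591-33360386, with 31.7, 36.7 and 37.4 CPM in high and 57.6, 51.2 and 54.6 CPM in mid (log2 fold change -0.63, edgeR adjusted p = 0.000318). The region chr6:33290004-33291969 held 25.9, 25.2 and 31.4 CPM in high and 43.9, 42.5 and 42.8 CPM in mid, so that here mid replicate 1 was not set apart (log2 fold change -0.65, edgeR adjusted p = 0.000284). In chr6:33384470-33388418 the high samples held 53.7, 46.6 and 45.6 CPM and the mid samples 84.6, 77.0 and 70.4 CPM (log2 fold change -0.67, edgeR adjusted p = 5.79e-05). The last region, chr6:33392517-33397495, was 4979 bp wide and was not called: it held 32.2, 36.2 and 29.1 CPM in high and 49.8, 40.4 and 37.6 CPM in mid (log2 fold change -0.39, edgeR adjusted p = 0.0353). Its groups did not overlap either.

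**Figure D4:**
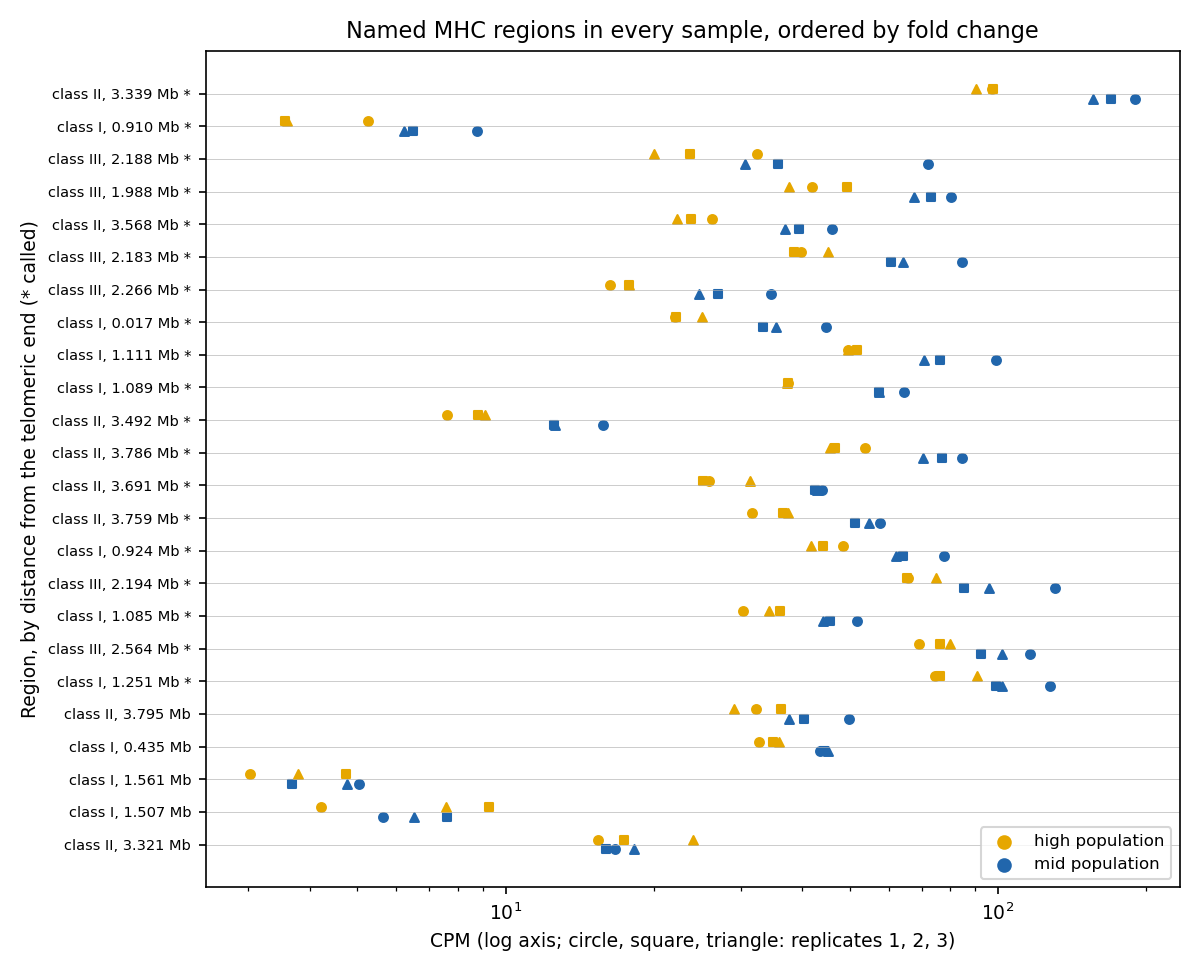
CPM (horizontal log axis) of the 24 named regions in each high and mid sample, ordered by log2 fold change from the lowest at the top, with marker shapes for replicates 1, 2 and 3 and an asterisk for called regions. The top row is the class II region with 90.3 to 97.8 CPM in high and 156 to 190.2 CPM in mid; the 3 lowest rows, where the groups overlap, were not called.

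The number of called regions differed along the interval, and no test compared its parts. Over all regions of the table, 3.77% were called higher in mid. In consecutive windows of 0.5 Mb from 29.6 Mb, the number called was 1 of 34, 4 of 30, 5 of 42, 3 of 32, 8 of 50, 3 of 21, 3 of 37 and, in the last, shorter window, 8 of 30. The median log2 fold change of the windows was lowest in the last, at -0.42, and next lowest at -0.31 in the window from 31.6 Mb, while the others lay between -0.20 and -0.11. Every window had a median below 0. In the same order, the windows held 11, 6, 12, 9, 18, 4, 9 and 11 regions over 2000 bp. Median widths were also largest in the last window, at 1731.5 bp, and in that from 31.6 Mb, at 1730.0 bp, and smallest from 32.6 Mb, at 963 bp.

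The longest run of MHC regions with no call was in class I, from 29628534 to 30450433, with 52 regions over 821.9 kb. Of these, 43 had a lower level in high, with a median log2 fold change of -0.12, and the lowest edgeR adjusted p among them was 0.0291. A second run, from 30874991 to 31365193, held 30 MHC regions, of which 24 were lower. It spans the POU5F1 window, and 1 of the 5 regions left out there was called higher in mid, so the run is unbroken only among the regions kept. In class II, 34 regions in a row from 32380963 to 32923292 were not called. Their median log2 fold change was -0.17, 28 were lower in the high population, and 3 were over 2000 bp wide, with a median width of 962.5 bp. In these runs, too, most regions were lower in the high population without passing the test.

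The widest gaps between neighbouring regions lay around the start of class II. No region was listed between 32277017 and 32380963, a gap of 103.9 kb at the border with class III, nor between 32668797 and 32753576, a gap of 84.8 kb inside class II. The largest gap inside class I was 52.9 kb, from 29856682 to 29909621. Mappability in these gaps was not measured.

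Only 3 MHC regions had an unadjusted p under 0.05 with a higher level in the high population, and they were chosen by that count after their values were seen. The region chr6:30668108-30668780 held 2.68, 3.20 and 3.07 CPM in high and 1.16, 1.86 and 2.61 CPM in mid (log2 fold change 0.70, edgeR adjusted p = 0.0616). In chr6:30726995-30727935 the values were 5.82, 3.81 and 4.04 CPM in high and 3.34, 2.94 and 2.84 CPM in mid (log2 fold change 0.57, edgeR adjusted p = 0.0608). In class II, chr6:32557196-32558172 held 6.85, 6.15 and 5.70 CPM in high and 3.42, 4.85 and 5.48 CPM in mid (log2 fold change 0.45, edgeR adjusted p = 0.119). The groups did not overlap in these 3 regions, all under 1000 bp wide, and none passed the test. The lowest log2 fold change of any MHC region, -0.96 at chr6:29813116-29813672 in class I, was not called either (edgeR adjusted p = 0.0366). That region held 1.65, 0.923 and 0.704 CPM in high and 4.09, 1.04 and 1.57 CPM in mid, and its mid replicate 1 was far above the other samples.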

How the data were processed

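FAST-ATAC libraries of sorted WA09 cells, 3 per population, were analysed. Per the study's methods the authors used hg19 for alignment after trimming, dropped duplicate reads, moved read ends to where Tn5 cuts, ran MACS on the pooled replicates and merged the resulting regions of both populations. The submitters' processing notes name BWA 0.7.15, MACS 1.4.2 and SAMtools 0.1.19. Each deposited value is a raw count of reads. Starts are printed 1 higher than deposited, read as counting from 0.

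Counts of all 118556 regions were fitted with edgeR 4.0.16 under R 4.3.3 (quasi-likelihood test after TMM, block of 3 replicate numbers, no filter, adjusted p under 0.01 called). DESeq2 1.42.0, limma 3.58.1 loess offsets (span 0.3), other scalings, a filter, the threshold and each pair or sample left out were alternatives. Interval sums were tested by exact permutation with scipy 1.17.1. Samples that share a number in the labels were taken as pairs, a pairing that the labels do not state. After removing each population's mean, the residuals of samples that share a number had r of 0.19 to 0.30 over regions. For other pairs of a high and a mid sample, r was -0.26 to 0.06. Residuals of a population sum to 0 in each region, so these r values are not independent of one another. The fit was tested on simulated data. P-values measure the spread between 3 replicates of 1 cell line. PCR reads are not independent molecules, so read numbers give counting error only as a lower limit.

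Named regions were, per interval, the 4 called ones with the largest change and the 1 with the smallest p, the 3 with most CPM per kb, the 2 widest, and the neighbours of the left out window; others are said to be chosen later. The interval, lists and motifs were chosen with earlier results of these data known. Promoter windows were searched without regard to overlap of motifs or of windows.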

Additional observations from a re-analysis of the deposited data

How the results depend on the processing

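The count of 35 MHC regions higher in mid became 15 with no replicate block, 16 with loess offsets on average log2 CPM, 11 with loess offsets on region width and 61 at an adjusted p under 0.05, and ranged from 3 to 49 as single samples or pairs were left out. It was 18 without mid replicate 1, 23 without high replicate 1, 21 without replicate 1 of both, 8 without high replicate 2, and 3 without mid replicate 2 or without both. In the other settings it was between 24 (total counts) and 45 (upper quartile). The count higher in high was 0 in each setting. The 35 kept their direction in each fit except 1 under width offsets, the class I region starting at 30847507, at 0.038; the cause was not tested. With single pairs left out, the log2 differences of the sums ranged from -0.41 to -0.18 in class I, from -0.50 to -0.26 in class III and from -0.52 to -0.31 in class II. Under the replicate block the sums had an exact sign-flip p of 0.25, the smallest that 3 pairs allow. The class III to class II ratio, 0.011 in all samples, ranged from -0.031 to 0.048. With the median of the rest of chromosome 6 set to 0, a centring chosen after seeing the data, the medians were -0.27, -0.42 and -0.38 in class I, class III and class II.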
